A study of Saccharomyces cerevisiae with 4 samples.

Results

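The nuclear genes for the respiratory chain and the ATP synthase of the budding yeast Saccharomyces cerevisiae were examined for binding of 2 transcription factors, Pho4 and Cbf1. The set was a fixed list of 38 genes among 6002 protein-coding nuclear genes of the annotation. It held 9 genes of complex III, 9 of complex IV, 4 of complex II, 2 for cytochrome c, 11 of the ATP synthase and 3 for NADH dehydrogenases. All 38 symbols matched the R64 annotation. Members were listed by name and function, and the list was drawn up with earlier results of these data known.

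The series holds 2 ChIP-nexus libraries of each factor, and in ChIP-nexus the immunoprecipitated DNA is digested by an exonuclease that stops at the crosslinked protein, which narrows the position of binding. Pho4 was tagged in strain W303 Z1441, with the genotype PHO4::9myc::TRP1, and Cbf1 was tagged in strain W303 Z1497, with the genotype CBF1::9myc::TRP1. Both proteins therefore carried 9 copies of the Myc epitope and were precipitated with the same antibody, ab9E10. Per the labels, cells grew in YPD (rich glucose medium) at 25 °C and then spent 2 h in phosphate-free medium with 2% glucose, and the same text is attached to the Cbf1 libraries. Libraries of input DNA, of an untagged strain or of phosphate-fed cells were not used here. The processing notes name no control, so whether peaks were called against one is not known. The labels do not say whether libraries of 1 factor came from separate cultures, so the spread between them may be technical.

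In respiration, electrons from NADH and succinate pass to ubiquinone, then through complex III, cytochrome c and complex IV to oxygen, and the ATP synthase uses the proton gradient so formed. Budding yeast has no proton-pumping NADH dehydrogenase, and single-subunit enzymes, Ndi1 inside and Nde1 and Nde2 outside the inner membrane, take its place. Many of these genes are repressed by glucose and are activated through the Hap complex, which binds CCAAT boxes. Pho4, the activator of the phosphate starvation response, and Cbf1, a factor of sulfur metabolism genes and centromeres, are basic helix-loop-helix proteins that share the E-box CACGTG. A T directly 5′ of that core is known to disfavour Pho4 and to favour Cbf1. Cbf1 is also known as a factor at the promoter of QCR8, a complex III gene.

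Of the 38 promoters, taken as the 500 bp upstream of the gene start, 8 held CACGTG, or 21.1%, against 366 of 5962 other full-length promoters, or 6.14%. They were those of QCR6, QCR8, QCR10, RIP1, ATP2, ATP3, ATP7 and COX7, which between them held 10 sites, since ATP7 had 3. All 8 promoters held TCACGTG on at least 1 strand, against 72.7% of the other promoters with CACGTG. The T flank stood on both strands at the sites of QCR10, ATP2 and ATP3 and at 2 of the 3 ATP7 sites. The stretches below show 120 bp around the sites of 6 promoters, QCR8 and the 5 others with CACGTG within 50 bp of a promoter summit. They are read 5′ to 3′ on the strand of the gene from the S288C reference (sacCer3, R64), with CACGTG in capitals, and single bases may differ in W303.
QCR8 (plus strand, chrX:106136-106255): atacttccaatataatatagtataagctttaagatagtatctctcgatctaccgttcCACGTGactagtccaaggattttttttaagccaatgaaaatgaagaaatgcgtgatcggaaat
QCR6 (minus strand, chrVI:224964-225083): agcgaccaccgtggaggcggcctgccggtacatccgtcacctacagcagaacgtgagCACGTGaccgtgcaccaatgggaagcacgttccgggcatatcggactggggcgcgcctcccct
RIP1 (plus strand, chrV:106992-107111): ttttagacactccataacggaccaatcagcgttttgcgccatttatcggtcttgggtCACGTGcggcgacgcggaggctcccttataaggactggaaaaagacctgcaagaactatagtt
QCR10 (plus strand, chrVIII:107556-107675): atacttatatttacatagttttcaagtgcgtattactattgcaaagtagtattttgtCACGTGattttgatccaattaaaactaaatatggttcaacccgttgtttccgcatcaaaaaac
ATP7 (minus strand, chrXI:408209-408328): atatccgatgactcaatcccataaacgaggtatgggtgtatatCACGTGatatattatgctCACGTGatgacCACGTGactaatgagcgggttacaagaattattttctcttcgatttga
ATP3 (plus strand, chrII:315309-315428): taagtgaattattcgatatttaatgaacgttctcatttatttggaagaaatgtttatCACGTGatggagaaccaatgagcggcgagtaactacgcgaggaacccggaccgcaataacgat
The ATP7 stretch shows 3 E-boxes within a few turns of the DNA helix, while the other 5 stretches hold 1 each.

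The 4 peak lists do not reach equally far. Chromosomes stand in text order (I, II, III, IV, IX, V and so on), and only Pho4 replicate 2, with 2210 peaks, runs to the last of them, chromosome XVI. Pho4 replicate 1, with 2026 peaks, stops at position 68625 of chromosome XIV. Cbf1 replicate 2, with 1575 peaks, stops at 6704 of the same chromosome, and Cbf1 replicate 1, with 933 peaks, stops at 856779 of chromosome VII. A gene is counted in a list only where its body and promoter lie in the stretch that the list reaches. Pho4 replicates 1 and 2 thereby cover 32 and 38 members, Cbf1 replicates 1 and 2 cover 16 and 32, and 16 members are covered by all 4 lists, 16 by all but Cbf1 replicate 1, and 6 (QCR2, CYT1, COX5A, ATP4, ATP15 and ATP20) by Pho4 replicate 2 alone. QCR8, on chromosome X, is among the 16 that Cbf1 replicate 1 does not reach. The lists give no read totals, and the summit heights implied by the authors' fold and p columns had medians of 68 and 43 reads in Pho4 replicates 1 and 2 and of 63 and 47 reads in Cbf1 replicates 1 and 2.

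The first comparison asked how many member promoters held a peak summit in each list. Pho4 summits lay upstream of 21 of 32 members in replicate 1, or 65.6%, and upstream of 18 of 38 in replicate 2, or 47.4%. Of all other covered protein-coding genes, 25.5% and 23.1% had one. Cbf1 summits lay upstream of 4 of 16 members in replicate 1, or 25%, and of 7 of 32 in replicate 2, or 21.9%, beside 14.7% and 12.9% of the other genes. The 95% Wilson intervals of the member shares, which cover counting error only, were 48.3 to 79.6 and 32.5 to 62.7 for Pho4 and 10.2 to 49.5 and 11.0 to 38.8 for Cbf1. They rest on 32 and 38 members for Pho4 and on 16 and 32 for Cbf1, and were not read as a test. Members exceeded the other genes by 32.2 ± 11.2 percentage points for Pho4 and by 9.64 ± 0.956 points for Cbf1 (mean ± SD, n = 2 libraries). The 2 libraries of a factor cover different numbers of members, so these SDs are not the spread between libraries alone. In the region that all 4 lists cover, the excess was 54.3 ± 2.46 points for Pho4 and 11.1 ± 1.135 for Cbf1. When a summit counted only for the gene with the nearest start, it was 24.1 points for Pho4 and 5.40 for Cbf1. With only peaks at or above their list's median −log10 q, it was 12.3 points for Pho4 and 14.1 for Cbf1. The excess was not tested, since the list was drawn up with earlier results of these data known.

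**Figure D1:**
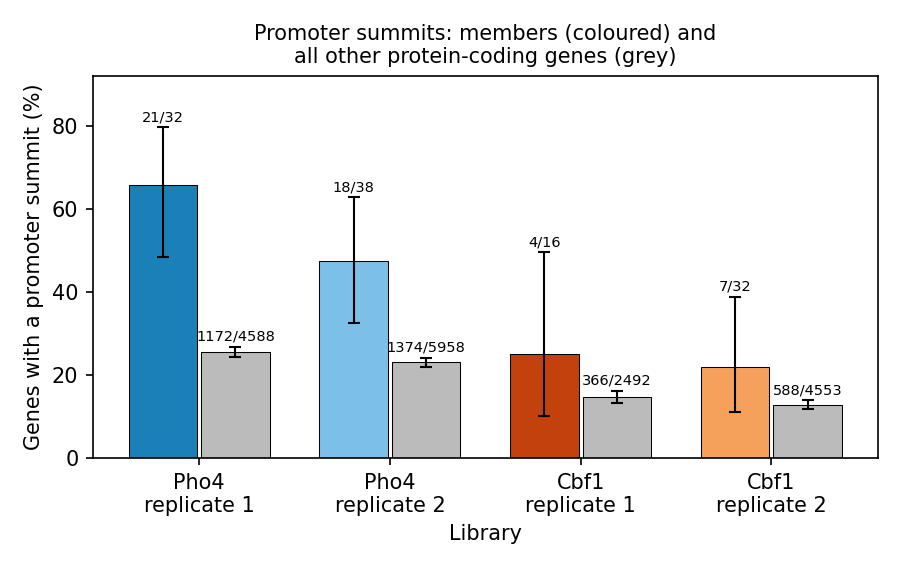
Share of genes with a peak summit in the 500 bp upstream (y axis, %) in each library (x axis), for the respiratory members (coloured bars) and all other protein-coding genes that the list covers (grey bars), with counts above the bars and 95% Wilson intervals as error bars. Members stand at 65.6% and 47.4% in the Pho4 libraries and at 25% and 21.9% in the Cbf1 libraries.

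Pho4 had a summit in both replicates at 17 of the 32 members that both lists cover, or 53.1%, beside 18.9% of the other genes. They were NDE2, SDH1, SDH4, QCR6, QCR7, QCR8, RIP1, CYC1, CYC7, COX5B, COX9, COX13, ATP2, ATP3, ATP7, ATP16 and ATP17. Cbf1 had one in both replicates at 4 of 16 members (COR1, QCR6, RIP1 and ATP3), or 25%, beside 9.87% of the other genes. Among the 16 members covered by all 4 lists, QCR6, RIP1 and ATP3 had a summit in all of them, or 18.8%, beside 6.26% of the other genes in that region. In the same region 12 of the 16 members, or 75%, had a summit in both Pho4 lists, beside 18.7% of the other genes. Of the 16, 9 (56.3%) had those and none in either Cbf1 list, beside 9.07% of the other genes. Those 9 were NDE2, SDH4, QCR7, CYC7, COX5B, COX9, COX13, ATP16 and ATP17. These counts follow summits, and in 12 pairs of a gene and a list, over 9 genes, a peak reached into the promoter while its summit lay outside. Among them were QCR7 and QCR8 with Cbf1 and COR1 with Pho4, under peaks of 737 to 2388 bp, beside a median peak width of 283.5 to 302 bp in the 4 lists. Other genes gained promoters in the same way. With any overlap counted, Pho4 replicates 1 and 2 stood at 71.9% and 57.9% of members, beside 34.2% and 31.2% of other genes. Cbf1 replicates 1 and 2 stood at 37.5% and 34.4%, beside 24.0% and 20.1%.

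**Figure D2:**
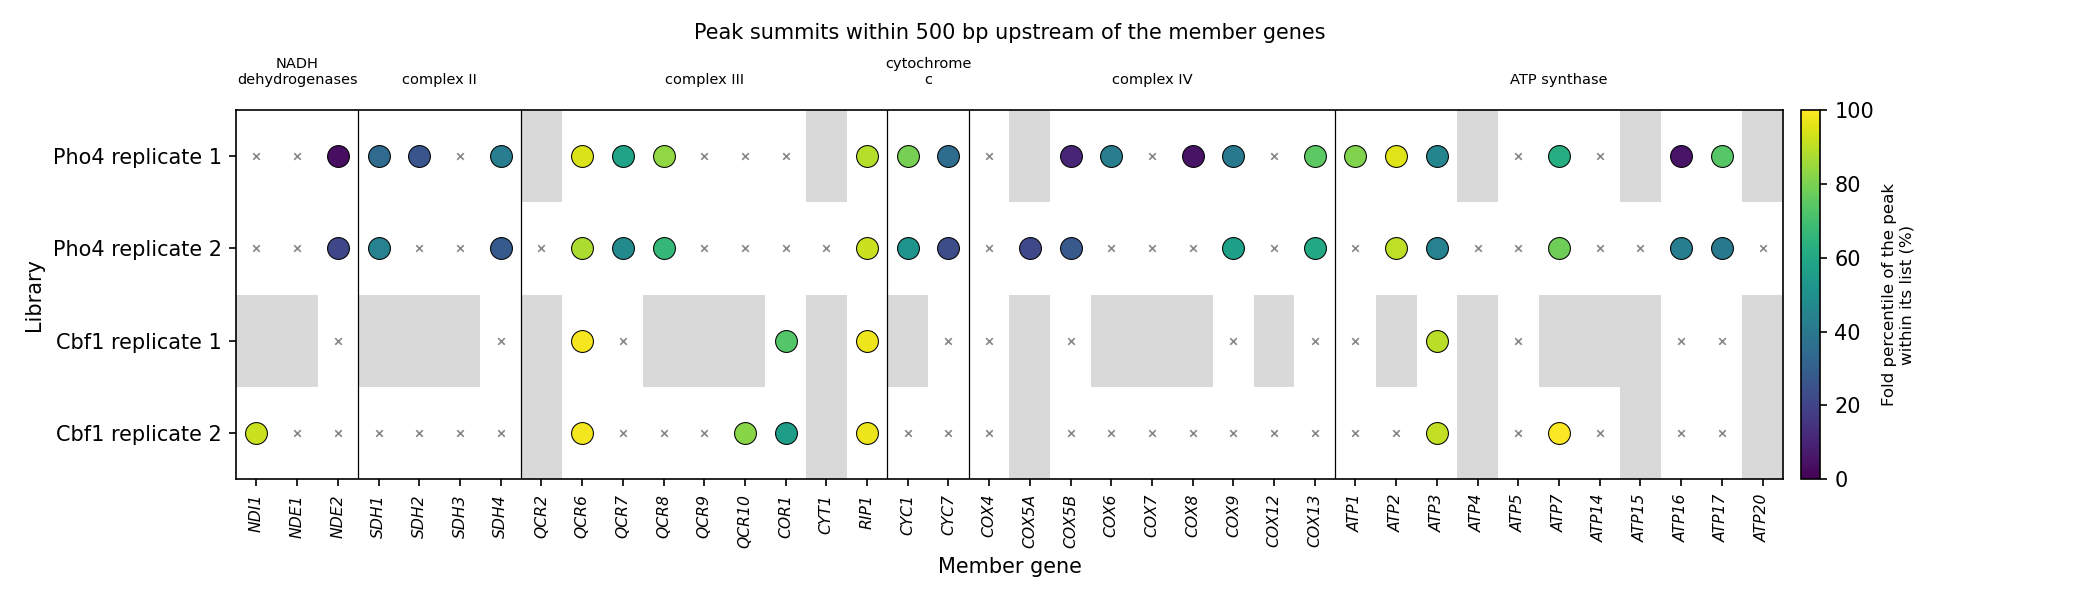
Each column is a member gene, grouped by complex, and each row a library. A circle marks a summit within 500 bp upstream, coloured by the percentile of the authors' fold within that list (%), a cross marks a covered promoter without a summit, and grey marks a gene that the list does not reach. Pho4 circles spread over all 6 groups, while the Cbf1 circles fall on 7 genes, 4 of them in complex III. In Cbf1 replicates 1 and 2, 3 of 4 and 4 of 7 covered complex III genes have a circle. These are 75% and 57.1%, beside 14.7% and 12.9% of all other protein-coding genes.

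The 2 factors differed in how their member peaks ranked. The authors' fold is the summit height over the local background, and its percentile gives the share of peaks in the same list with that fold or less. For Pho4 the median percentile of member promoter peaks was 45.5 in replicate 1 and 46.1 in replicate 2, below the 55.3 of promoter peaks at other genes in both. For Cbf1 it was 93.6 in replicate 1 and 92 in replicate 2, above the 64.4 and 69.2 at other genes. These Cbf1 medians rest on 4 and 7 peaks, which ranged from 73.3 to 98.8 and from 55.4 to 99.2. Members' Pho4 peaks ranged widely, from 3.46 to 95.2 in replicate 1 and from 21.3 to 92.1 in replicate 2. When only peaks at or above their list's median −log10 q were kept, the excess of members for Pho4 dropped to 12.3 points.

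The E-box was unevenly placed among these peaks. CACGTG lay within 50 bp of 4 of the 21 member promoter summits in Pho4 replicate 1 (19.0%, Wilson interval 7.67 to 40.0) and of 4 of 18 in Pho4 replicate 2 (22.2%, 9.00 to 45.2). The shares at other promoters were 14.8% and 16.6%. In the Cbf1 lists it lay near 3 of 4 (75%, 30.1 to 95.4) and 5 of 7 (71.4%, 35.9 to 91.8), beside 23.1% and 30.4% elsewhere. With a window of 25 bp the member shares were 9.52% and 5.56% in Pho4 replicates 1 and 2 and 50% and 28.6% in Cbf1 replicates 1 and 2. Members whose promoter held no CACGTG had a Pho4 summit in 15 of 24 cases in replicate 1, or 62.5%, and 12 of 30 in replicate 2, or 40%. Other promoters without CACGTG had one in 22.2% and 19.8% of cases. For Cbf1 the members without CACGTG had a summit in 1 of 13 and 2 of 24 cases, or 7.69% and 8.33%, beside 11.1% and 8.74% of other genes, so they stood near the background. Where CACGTG was present, 6 of 8 members had a Pho4 summit in each list, or 75%, beside 74.0% and 72.6% of other genes, so members with an E-box were at the background rate for Pho4. In the Cbf1 lists, 3 of 3 and 5 of 8 members with CACGTG had a summit, or 100% and 62.5%, beside 71.6% and 73.0%.

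**Figure D3:**
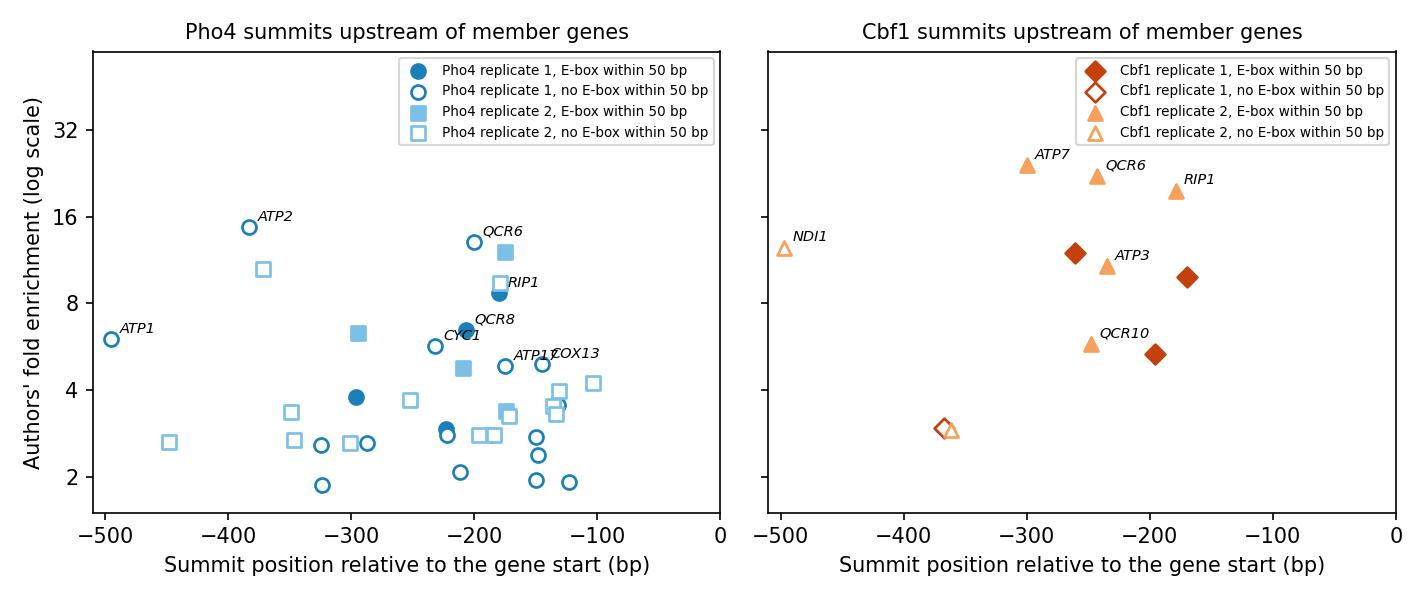
Authors' fold enrichment on a log scale (y axis) against summit position relative to the gene start in bp (x axis) for each member promoter peak, with Pho4 on the left and Cbf1 on the right. Filled symbols have the E-box CACGTG within 50 bp and open symbols do not. Most Pho4 symbols are open, and the Cbf1 symbols of fold above 14 are all filled.

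Among the complex III genes, which encode the ubiquinol-cytochrome c reductase, QCR6, RIP1, QCR8, QCR7, QCR10 and COR1 had a summit in at least 1 list. Pho4 had one at 4 of 7 and 4 of 9 covered genes in replicates 1 and 2. These are 57.1% and 44.4%, beside 25.5% and 23.1% of other genes. Cbf1 had one at 3 of 4 and 4 of 7, or 75% and 57.1%, beside 14.7% and 12.9%. QCR6 (YFR033C, chromosome VI, 224326 to 224769, minus strand) encodes an acidic small subunit. Its authors' fold was 13.1 and 9.40 in Pho4 replicates 1 and 2 and 12.0 and 22.2 in Cbf1 replicates 1 and 2. The Cbf1 summits lay 6.5 and 11.5 bp from the centre of its CACGTG, and the Pho4 summits 54.5 and 75.5 bp from it, on the side of the gene. The Pho4 peaks at QCR6 are therefore counted as lacking an E-box at 50 bp, although the promoter holds one.

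RIP1 (YEL024W, chromosome V, 107260 to 107907, plus strand) encodes the Rieske iron-sulfur protein, which takes electrons from ubiquinol. The fold at RIP1 was 8.70 and 12.1 in Pho4 replicates 1 and 2, and Cbf1 replicates 1 and 2 gave 9.88 and 19.7. All 4 RIP1 summits lay between 28.5 and 38.5 bp from CACGTG, on the gene side. The fold percentiles of RIP1 were 89.0, 92.1, 97.6 and 97.1, and those of QCR6 were 94.2, 87.8, 98.8 and 98.3, in the order Pho4 1, Pho4 2, Cbf1 1 and Cbf1 2. At both genes each Cbf1 percentile lay above each Pho4 percentile, by 6.83 points at RIP1 and 7.58 points at QCR6 in the mean. The two-sided exact permutation p over the 6 assignments of the libraries was 0.33 for each, the smallest that 2 against 2 libraries can give.

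QCR8 (YJL166W, chromosome X, 106434 to 106718, plus strand) encodes a small subunit next to cytochrome b. It had a Pho4 summit 207 bp upstream in replicate 1, with a fold of 6.47 and an implied height of 158 reads, and 209 bp upstream in replicate 2, with a fold of 4.77 and 61 reads. These summits lay 31.5 and 29.5 bp from the CACGTG shown above. Cbf1 replicate 1 does not reach QCR8, and Cbf1 replicate 2 lists no summit in its promoter. A Cbf1 replicate 2 peak of fold 13.7, with its ends at 104164 and 106551 and a width of 2388 bp, nevertheless covers the whole QCR8 promoter, its E-box included. Its 1 listed summit lies 1499.5 bp from that E-box, so the peak was not counted for QCR8. Whether Cbf1 signal within this wide peak rises at the E-box cannot be read from the list.

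QCR10 (YHR001W-A, chromosome VIII, 107826 to 108122) had a Cbf1 summit and no Pho4 summit in its promoter. Cbf1 replicate 1 does not reach QCR10. The summit of Cbf1 replicate 2 had a fold of 5.78 and an implied height of 278 reads. It lay 37.5 bp from an E-box with the T flank on both strands. No Pho4 summit lay nearer to that site than 1692.5 bp. COR1, for the larger core subunit, had Cbf1 summits 367 and 362 bp upstream, with folds of 2.96 and 2.90, no E-box in its promoter and no Pho4 summit, although Pho4 peaks of fold 7.26 and 6.48 reached into it from summits 748 and 711 bp upstream. The start nearest to these COR1 summits belongs to the neighbouring YBL044W. QCR7, for another small subunit next to cytochrome b, had Pho4 folds of 3.54 and 3.51 at 132 and 136 bp upstream and no Cbf1 summit, although a Cbf1 replicate 1 peak 1774 bp wide, of fold 5.65, overlapped 435 bp of its promoter. QCR2, QCR9 and CYT1, for the other core subunit, a small subunit and cytochrome c1, had no promoter summit in any list that covers them.

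**Figure D4:**
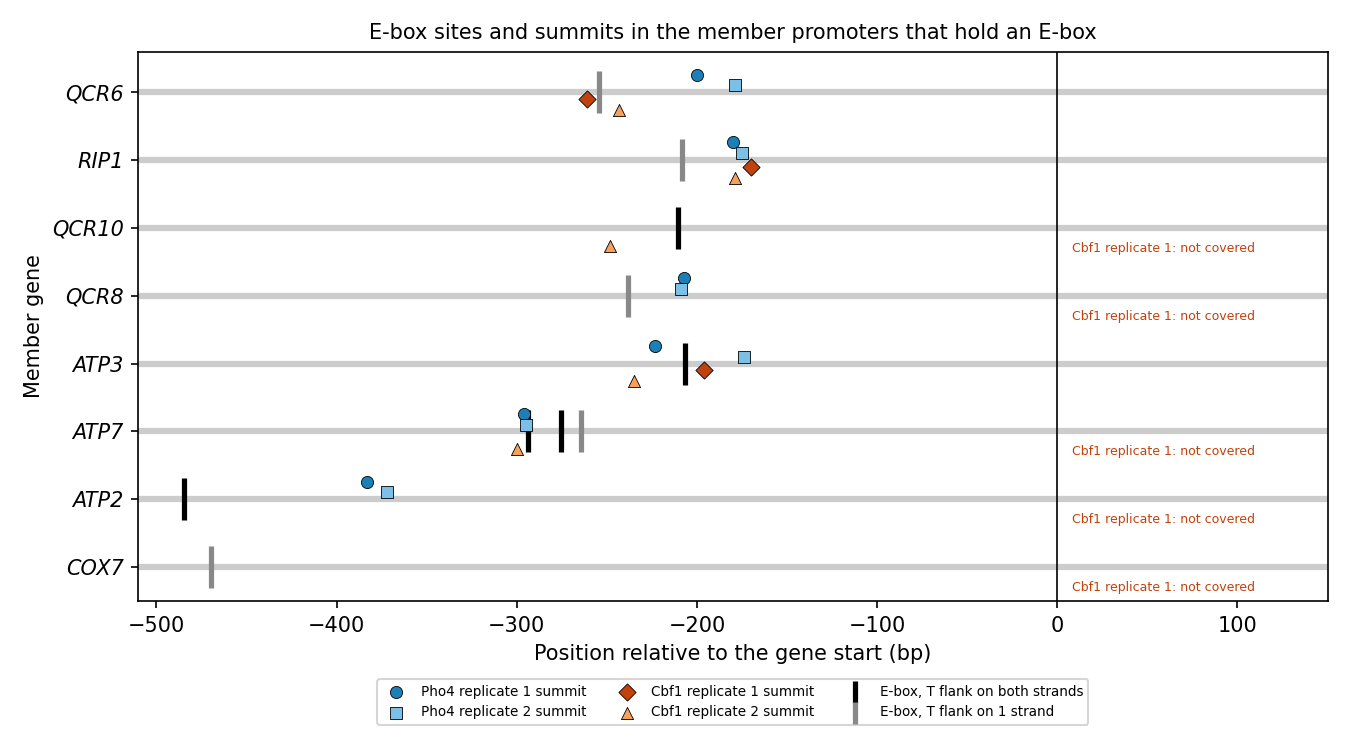
The 8 member promoters that hold CACGTG, drawn as distance from the gene start in bp (x axis), with the sites as vertical bars (black where T flanks both strands, grey where it flanks 1) and the summits of each library as symbols. QCR6, RIP1 and ATP3 carry symbols of all 4 libraries, QCR8 and ATP2 within the 500 bp those of Pho4 only, QCR10 that of Cbf1 only, and COX7 none.

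The ATP synthase had Pho4 summits at 6 of 8 and 5 of 11 covered genes in replicates 1 and 2. These are 75% and 45.5%, beside 25.5% and 23.1% of other genes. Cbf1 had summits at 1 of 5 and 2 of 8, or 20% and 25%, beside 14.7% and 12.9%. Among these genes, ATP3 and ATP7 had Cbf1 summits as well as Pho4 summits. ATP3 (YBR039W, chromosome II, 315575 to 316510, plus strand) encodes the gamma subunit, the central rotor stalk. The fold at ATP3 was 2.92 and 3.39 in Pho4 replicates 1 and 2, against 5.35 and 10.8 in Cbf1 replicates 1 and 2. All 4 summits lay between 10.5 and 32.5 bp from an E-box with the T flank on both strands. For Pho4 the percentiles of ATP3 were 45.5 and 44.5, whereas Cbf1 had 89.6 and 90.9. The means differed by 45.3 points, more than the spread between replicates of either factor (exact permutation p 0.33, two-sided, again the lowest attainable).

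ATP7 (YKL016C, chromosome XI, 407465 to 407989, minus strand) encodes subunit d of the stator stalk and carries 3 E-boxes. Its fold was 3.79 and 6.33 with Pho4 and 24.2 in Cbf1 replicate 2, where it stood at percentile 99.2, above every other member peak in that list. Cbf1 replicate 1 does not reach ATP7. The summits at ATP7 lay 2.5, 1.5 and 6.5 bp from the E-box farthest from the gene. They also lie in the promoter of the divergent gene PUT3, whose start is nearer.

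ATP2 (YJR121W, chromosome X, 647607 to 649142, plus strand), for the catalytic beta subunit, had the highest member fold of Pho4 replicate 1, 14.7, and a fold of 10.5 in replicate 2. These summits lay 101.5 and 112.5 bp from the E-box of ATP2, and the start of another gene is nearer to both. The Cbf1 replicate 2 summit there lay 58.5 bp from that E-box with a fold of 8.87, but 543 bp upstream, just outside the promoter as counted, while its peak of 1064 bp covered the whole promoter. ATP17, for subunit f, had Pho4 folds of 4.84 and 3.24, and ATP16, for the delta subunit, 1.94 and 3.30. Neither ATP16 nor ATP17 had a Cbf1 summit in either list. ATP1, for the alpha subunit, had a Pho4 summit 495 bp upstream in replicate 1 (fold 6.02) and 502 bp upstream in replicate 2 (fold 5.15), so only the first was counted, and a tRNA gene lies within 500 bp of it. ATP4, ATP5, ATP14, ATP15 and ATP20 had no promoter summit in any covering list.

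Both genes for cytochrome c, the mobile carrier between complexes III and IV, had Pho4 summits in both lists, beside 18.9% of other genes. Neither had a Cbf1 summit in the lists that cover it, beside 14.7% and 12.9% of other genes with one in Cbf1 replicates 1 and 2. The Pho4 fold was 5.67 and 3.70 at CYC1, the aerobic isoform, 232 and 252 bp upstream. It was 2.61 and 2.67 at CYC7, the hypoxic isoform, 287 and 347 bp upstream, where the start of a neighbouring gene is nearer.

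Complex IV, the cytochrome c oxidase, had Pho4 summits at 5 of 8 covered genes in replicate 1 and 4 of 9 in replicate 2. These are 62.5% and 44.4%, beside 25.5% and 23.1% of other genes. COX13 had folds of 4.93 and 4.23 at 145 and 104 bp upstream. COX9 had folds of 2.75 and 3.97, with summits that also lie in the promoter of the divergent gene IDP1. COX5B, the hypoxic form of subunit 5, had folds of 2.07 and 2.79, and COX5A, its aerobic counterpart, had a fold of 2.64 in Pho4 replicate 2, the one list that covers it. COX6 and COX8 had a summit in Pho4 replicate 1 alone, with folds of 2.80 and 1.92, and another start is nearer to the COX6 summit. COX4, COX7 and COX12 had none. None of the 4 and 8 complex IV genes that Cbf1 replicates 1 and 2 cover had a Cbf1 summit, COX7 with its E-box included. Of other genes, 14.7% and 12.9% had one, so none among so few genes does not set complex IV apart.

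Complex II, the succinate dehydrogenase, had Pho4 summits at 3 and 2 of its 4 genes in replicates 1 and 2. These are 75% and 50%, beside 25.5% and 23.1% of other genes. It had no Cbf1 summit at the 1 and 4 genes that Cbf1 replicates 1 and 2 cover, beside 14.7% and 12.9%. SDH1, the flavoprotein, had folds of 2.57 and 3.37, SDH4, a membrane anchor, had 2.80 and 2.79, and SDH2, the iron-sulfur subunit, had 2.38 in replicate 1 alone, while SDH3 had none. Of the NADH dehydrogenases, NDE2 had low Pho4 folds of 1.88 and 2.62, with a neighbouring start nearer to both summits. NDI1 is not reached by Cbf1 replicate 1. In Cbf1 replicate 2 it had a summit of fold 12.5 at 497 bp upstream, just inside the limit, and nearer to the start of YML119W. A CACGTG lies 58.5 bp from that summit but outside the 500 bp, so NDI1 is counted as a promoter without CACGTG. NDE1 had no promoter summit.

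The summits themselves lay close to the genes. The median distance upstream of the start was 207 and 190 bp for member peaks of Pho4, beside 285.5 and 287 bp at other genes, and 228.5 and 248 bp for those of Cbf1, beside 287.5 and 302 bp. Each value is a median over genes of 1 list, and members of the Cbf1 lists number 4 and 7.

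A second sequence feature was more frequent in member promoters. ACCAATNA, a form of the CCAAT box that the Hap complex binds, was searched on both strands, and its last 2 letters can be the first 2 of CACGTG. It stood in 17 of 38 member promoters, or 44.7%, against 8.37% of other promoters. The shorter CCAAT stood in 34 of the 38, or 89.5%, against 62.3% of other promoters. In Pho4 replicate 1 a summit lay in 10 of 15 member promoters with ACCAATNA and 11 of 17 without it, or 66.7% and 64.7%, beside 24.9% and 25.6% of other genes. In replicate 2 the shares were 47.1% and 47.6%, beside 22.8% and 23.1%. The box lay within 50 bp of 5 of 21 and 3 of 18 member summits of Pho4, or 23.8% and 16.7%, beside 1.58% and 1.82% at other promoters. QCR7, SDH1 and ATP3 had it there in both lists. Member promoters with and without the box thus had Pho4 summits at similar shares. In Cbf1 replicate 1 a summit lay in 3 of 7 member promoters with the box and 1 of 9 without it, or 42.9% and 11.1%, beside 9.24% and 15.1% of other genes. In Cbf1 replicate 2 it was 5 of 15 and 2 of 17, or 33.3% and 11.8%, beside 10% and 13.2%. The box lay within 50 bp of 2 of 4 and 2 of 7 member summits of Cbf1, at ATP3 and COR1 in both lists, or 50% and 28.6%, beside 0.345% and 0.844% at other promoters. These Cbf1 shares rest on 1 to 5 genes each, and the difference between promoters with and without the box was not tested. Those with a Cbf1 summit and the box were COR1, ATP3 and RIP1, and in replicate 2 also ATP7 and NDI1. Of these, ATP3, RIP1 and ATP7 also held CACGTG, and NDI1 had one 58.5 bp from its summit. QCR6 and QCR10, which had a Cbf1 summit without the box, held CACGTG too. The box and the E-box were not told apart here.

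A further 71 genes of mitochondrial energy metabolism were set beside the members. They had Pho4 promoter summits in 21 of 56 and 22 of 71 covered cases, or 37.5% and 31.0%, and Cbf1 summits in 4 of 34 and 6 of 55, or 11.8% and 10.9%. These shares lie between those of the members and the other genes for Pho4, and below both for Cbf1. The lists behind them were unlike: in Pho4 replicates 1 and 2 the assembly factors stood at 11.5% and 6.45%, below the other genes, and the carriers at 75% and 62.5%, above the members. Summits in both lists are read against the 18.9% of other genes for Pho4 and the 9.87% for Cbf1. Among 8 mitochondrial carriers, 5 had Pho4 summits in both lists: AAC1, AAC3 and PET9, which exchange ADP and ATP, OAC1, which carries oxaloacetate and sulfate, and MIR1, the phosphate carrier. MIR1 had Pho4 folds of 2.91 and 3.02. All 3 further electron donors, CYB2, DLD1 and GUT2, had Pho4 summits in both lists, and so did the tricarboxylic acid cycle genes ACO1, KGD2, IDP1 and LPD1 of 8 covered. LPD1 also had Cbf1 summits in both lists, with folds of 6.28 and 13.8. Of 26 covered assembly factor genes only SDH6 and COX20 had Pho4 summits in both lists, and none of 16 had Cbf1 summits in both. INH1 and STF2, for the ATP synthase inhibitor and a stabilising factor, were the Pho4 cases among 5 small subunit and inhibitor genes. Among the regulators, HAP1 had Pho4 summits in both lists, and RTG2 and RTG3, of the retrograde response, had Cbf1 summits in both.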

How the data were processed

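Peaks of 2 Pho4 and 2 Cbf1 ChIP-nexus libraries were used, 1 list per library in narrowPeak layout, with group and replicate taken from the titles. The submitters' processing notes name cutadapt 1.8.1, Bowtie 1.1.2, SAMtools 1.3.1, bedtools, MACS2 2.1.1 and the build sacCer3, without thresholds or a control. The deposited lists give, by the authors, a fold enrichment (the ratio of summit height to local background) and −log10 p and −log10 q values per peak. No peak ended past an R64 chromosome, and the R64 annotation was used, with 1-based coordinates.

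The summit is the start plus the offset column. A promoter was the 500 bp upstream of the annotated gene start, and a summit counted for every gene whose promoter held it. Where a promoter held several summits, that of highest fold was used. Read depth is unknown. Summit heights were solved from fold and −log10 p as a whole number of reads under a Poisson background, for peaks with −log10 p up to 250, and matched within 0.001 in at least 99.9% of them, or in 0.665% to 2.13% with p values shuffled among peaks. Fold percentiles were compared between factors by a two-sided exact permutation test for members with summits in all 4 lists. Counting was tested on simulated data, where 200 of 200 planted promoter summits among 6002 genes were found.

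The members and lists were chosen with earlier results of these data known, and CCAAT boxes were added after the lists were opened. Every member is named, with values for those with a summit in all covering lists of a factor and for QCR8. Of the other pathway lists, genes with summits in both lists of a factor are named. Sequences are shown for QCR8 and members with CACGTG near a summit. Python 3.11.15, pandas 2.3.3, NumPy 2.4.6 and SciPy 1.17.1 were used.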

Additional observations from a re-analysis of the deposited data

Results flagged for a closer look

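Peaks on the mitochondrial chromosome were outside the counts above and are given because that chromosome encodes other subunits of the same complexes. The lists held 21 and 20 mitochondrial peaks for Pho4 and 13 and 9 for Cbf1, with no control library to set them against. Their median fold was 4.42 and 4.51 in Pho4 replicates 1 and 2, and 3.01 and 1.86 in Cbf1 replicates 1 and 2. Of the 7 mitochondrial genes for cytochrome b, cytochrome c oxidase and ATP synthase subunits, 6 and 5 had a Pho4 summit within the gene and 4 had a Cbf1 summit in each list. COX1, COX3 and COB had one in all 4 lists. Other mitochondrial genes were not counted and gene length was not taken into account. The counts were therefore not read as particular to these subunit genes. Neither the copy number of mitochondrial DNA nor its composition was tested as a part of these counts.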

How the results depend on the processing

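The excess of members over other genes kept its sign for both factors under every alternative tried. For Pho4 (32.2 points) it was 12.3 points with the upper 50% of peaks by −log10 q and 54.3 points in the region covered by all 4 lists, and 24.3 to 40.1 points with 1 replicate left out. For Cbf1 (9.64 points) it was 7.09 and 8.50 points with promoters of 250 and 1000 bp, 14.1 with the upper 50% by −log10 q, 11.1 in the region covered by all 4 lists, 11.3 on whole chromosomes only, 5.40 when a summit counted for the nearest start only, 11.4 without summits within 500 bp of a tRNA gene and 13.9 with any overlap of the peak with the promoter. It was 8.96 to 10.3 points with 1 replicate left out. The number of members with Pho4 summits in both replicates moved from 17 to 11 with promoters of 250 bp and to 7 with the upper 50%. The shares were 53.1%, 34.4% and 21.9%, beside 18.9%, 6.06% and 11.0% of other genes. For Cbf1 the number moved from 4 to 2 with promoters of 250 bp, or from 25% to 12.5%. Of other genes it was 9.87% and 3.61%. Fewer peaks are counted under these settings, for other genes as well. With promoters of 250 bp, 9 of the 25 members with a summit lost all of them, and with the nearest start only, 7 did (COR1, CYC7, COX6, ATP2, ATP7, NDI1 and NDE2). With the upper 50% by −log10 q, 10 did (CYC7, COX5A, COX5B, COX6, COX8, SDH1, SDH2, SDH4, ATP16 and NDE2). Such losses were not counted for other genes, whose shares with a summit also fell. In Pho4 replicates 1 and 2 these shares fell from 25.5% and 23.1% to 10.4% and 9.38% with 250 bp. With the nearest start only they were 18.9% and 17.0%, and with the upper 50% 14.9% and 12.8%. In Cbf1 replicates 1 and 2 they fell from 14.7% and 12.9% to 5.98% and 4.83%, 11.0% and 9.49%, and 9.87% and 8.76%, in the same order. With replicate number as a block, the differences in fold percentile at QCR6, RIP1 and ATP3 were 7.58, 6.83 and 45.3 points as before, with p 0.5 by exact sign flips within numbers, the smallest possible. With 1 library left out, these differences ranged from 4.41 to 10.8 points at QCR6, 5.27 to 8.40 at RIP1 and 44.6 to 45.9 at ATP3. The replicate numbers are not stated to pair the samples. The smallest p that the exact permutation test of 2 against 2 libraries allows is 0.33, so by that test no difference between the factors can pass a usual threshold. Absence of a summit means that none was listed, and the lowest implied height of a member peak was 24 reads, at SDH4 in Pho4 replicate 2.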

Other observations

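Summits inside the gene bodies gave another readout of the same genes. In Pho4 replicates 1 and 2, 3 of 32 and 8 of 38 members had a summit in the gene, or 9.38% and 21.1%, beside 15.9% and 13.0% of other genes. In Cbf1 replicates 1 and 2 they were 4 of 16 and 3 of 32, or 25% and 9.38%, beside 15.8% and 16.6%. ATP1 and RIP1 had one in both Pho4 lists and COR1 in both Cbf1 lists. Members are short, with a median gene length of 475.5 bp among those of Pho4 replicate 1 against 1194 bp for other genes. The replicates of each factor stood on different sides of the share of other genes.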
